A study of Caenorhabditis elegans with 2 samples.

Results

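COMPASS complexes are assemblies of proteins that methylate histone H3 on lysine K4, a mark found at the promoters of active genes. A SET-domain enzyme supplies the catalytic site, and a shared core of ASH-2, RBBP-5, WDR-5 and DPY-30 makes it active. In Caenorhabditis elegans the catalytic subunits are SET-2, the SET1-type enzyme, and SET-16, the MLL-type enzyme, and these complexes are known for roles in the germline, in lifespan and in larval development.

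The genes of 8 such proteins were described here, out of 19985 protein-coding genes of the annotation: ash-2, set-2, set-16, wdr-5.1, rbbp-5, dpy-30, cfp-1 and hcf-1. The genes were listed by name as subunits or partners of the complex, and the set was chosen by the signal and rank of their peaks in the same lists that are described here. Signals, ranks and counts of the members are therefore descriptions without a test. A gene was given every peak whose summit lay between 1000 bp upstream and 200 bp downstream of the 5' end of one of its annotated transcripts, a span called its promoter window below.

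The data came from chromatin immunoprecipitation and sequencing of the protein ZK546.5 in whole L2 larvae, recorded as a pool of males and females. The strain was OP231, genotype unc-119(ed3) III; wgIs231, in which a transgene supplied ZK546.5 with GFP and FLAG at its C-terminus. There was 1 group with 2 biological replicates and no second condition, and the labels do not say which promoter drove the transgene. They name the antibody by its target alone, and the control library used in calling was not analysed here. The peaks come from whole animals, so more cells with a bound promoter cannot be told apart from stronger binding in each cell.

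On the ce11 genome build the authors' list that passed the irreproducible discovery rate (IDR) threshold held 491 peaks, which were the 491 strongest of the 30000 peaks and background regions called on both replicates pooled. The lists of the replicates alone held 19076 regions for replicate 1 and 30000 for replicate 2. Whether the equal length of 30000 reflects a set limit is not known here. Presence below the threshold, and its absence, depend on how long each list is. The signal of each peak is the authors' own value. It ranks peaks within a list and is not scaled between lists, so values of the pooled list and of the replicates are given side by side and not compared. Sequencing depth is unknown from the sources at hand.

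The sequences at the summits of ash-2 and set-16 are shown because these were the members with a thresholded peak. The summit of rbbp-5 is shown as the strongest below the threshold, and that of set-26, another SET-domain gene, because it holds the same spaced pair of half-sites. All are the plus strand of ce11, read 5' to 3' and centred on the pooled summit. Capitals mark every match to GAGACGCAG or CCTGCACA on either strand and every TGGC followed after 5 bases by GCCA. The positions are chrII:11980219-11980419 for ash-2, chrIII:13643635-13643835 for set-16, chrII:6097601-6097751 for rbbp-5 and chrIV:16656379-16656479 for set-26.
ash-2: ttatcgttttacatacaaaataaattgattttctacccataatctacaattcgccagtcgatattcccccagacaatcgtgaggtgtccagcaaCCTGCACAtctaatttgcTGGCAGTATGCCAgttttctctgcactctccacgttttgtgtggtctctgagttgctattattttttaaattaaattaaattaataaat
set-16: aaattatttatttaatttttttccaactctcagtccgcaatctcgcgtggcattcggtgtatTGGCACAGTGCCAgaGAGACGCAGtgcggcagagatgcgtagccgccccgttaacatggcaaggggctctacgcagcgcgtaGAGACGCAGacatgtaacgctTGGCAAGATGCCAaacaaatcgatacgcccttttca
rbbp-5: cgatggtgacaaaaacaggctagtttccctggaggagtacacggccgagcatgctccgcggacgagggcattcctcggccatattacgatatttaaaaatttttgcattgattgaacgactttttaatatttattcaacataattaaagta
set-26: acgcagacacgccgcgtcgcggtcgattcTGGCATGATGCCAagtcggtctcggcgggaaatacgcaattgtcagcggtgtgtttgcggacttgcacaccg

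Of the 8 members, 2 had a thresholded summit in the promoter window, ash-2 and set-16, where 2.89% of all protein-coding genes had one. In the pooled list 6 of 8 members had a summit, against 40.8% of all protein-coding genes. In the list of replicate 1 it was 5 of 8, against 29.4%, and in that of replicate 2 it was 7 of 8, against 41.1%. Since the members were chosen with such values in view, nothing about the complex is read from these shares. The strongest pooled signal per gene ordered the members as ash-2, set-16, rbbp-5, set-2, cfp-1 and wdr-5.1, with no pooled summit for dpy-30 and hcf-1.

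**Figure D1:**
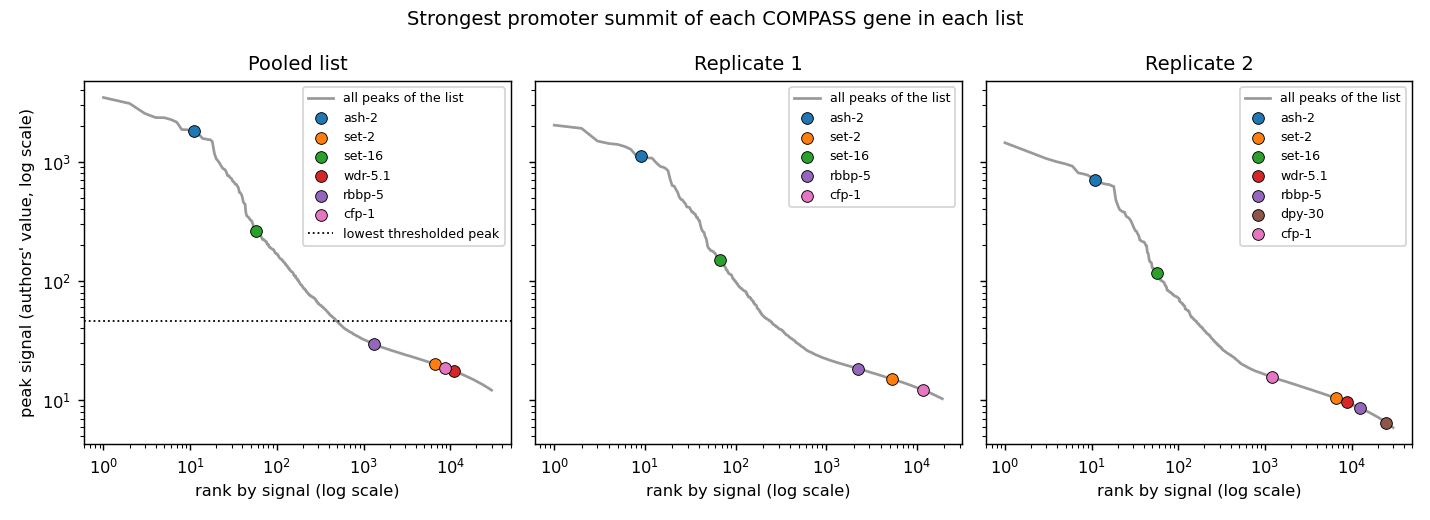
Signal against rank, both on log scales, for all peaks of the pooled list and of each replicate (grey line), with the strongest promoter summit of each member as a coloured point. In the pooled panel the points of ash-2 and set-16 lie above the dotted line at the lowest thresholded signal of 45.9, and those of the other listed members below it. In each replicate panel ash-2 and set-16 also rank ahead of the other listed members.

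The gene ash-2 (WBGene00012458, chromosome II 11979838 to 11989050, plus strand) encodes the subunit that, with RBBP-5, stimulates the SET-domain enzyme. Its promoter peak spanned chromosome II 11980092 to 11980511 and was 420 bp wide. The pooled signal was 1801, rank 11 of 30000, and it was the strongest of the 75 thresholded peaks on chromosome II. The signal was 1109 in replicate 1, rank 9, and 703 in replicate 2, rank 11. Within its own list the peak thus ranked between 9 and 11 in every case.

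The replicates placed the ash-2 summit at nearly the same base. It lay at position 11980319 in the pooled list and in that of replicate 1, and at 11980318 in that of replicate 2. Shifts of replicate summits were measured from the pooled summit, which was called on the same replicates. Over the 487 of 491 thresholded peaks (99.2%) that overlapped a peak of both replicates, the larger of the 2 shifts had a median of 23 bp. It was 1 bp at ash-2 and 4 bp at set-16. For 61 of the 491 thresholded peaks it was 4 bp or less, a limit equal to the set-16 value, so both members fall within it by construction. Unlike the median, this count was made over all 491 peaks. A peak that overlapped 1 replicate alone entered it with its single shift.

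Where the ash-2 peak lies in the gene depends on the transcript. The annotation gives ash-2 5 transcripts, and its summit preceded the start of the closest coding transcript by 107 bp and those of the other 3 coding ones by 144 to 146 bp. The remaining transcript, which has no coding sequence, starts 481 bp upstream of the summit, and the summit lay in an exon of it. With the most upstream 5' end of each gene alone, ash-2 had no thresholded summit in its window. The window of the divergent neighbour Y17G7B.20 held the same summit, 475 bp upstream of its closest 5' end.

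The ash-2 peak was far stronger than any listed region near it. Within 5000 bp of the summit the pooled list held 9 other regions, and the strongest of them, 2549 bp away, had a signal of 37.1. The signal at ash-2 was 48.5 times that value and 39.2 times the lowest thresholded signal. A second pooled region fell in the window of ash-2 with a signal of 16.2, rank 14509. Its summit lay in an intron of Y17G7B.20, 693 bp upstream of the non-coding ash-2 transcript and outside the windows of the coding ones. In rank, the promoter peak of ash-2 was preceded by that of mcrs-1 and atp-1 (signal 1840) and followed by that of ant-1.1, T27E9.2 and abcf-2 (signal 1715).

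The gene set-16 (WBGene00011729, chromosome III 13643916 to 13656637, plus strand) encodes the MLL-type catalytic subunit. Its peak spanned chromosome III 13643627 to 13643860, was 234 bp wide, and lay in the 345 bp between set-16 and the divergent gene drr-2, which in C. elegans encodes a translation initiation factor of the eIF4H type. The pooled signal was 265, rank 57, and 12th of the 102 thresholded peaks on chromosome III. The signal was 149 in replicate 1, rank 67, and 117 in replicate 2, rank 57. The summits were at 13643735, 13643734 and 13643731 in the pooled list, in replicate 1 and in replicate 2, within 4 bp of each other.

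Its summit lay 181 bp before the start of set-16 and 165 bp before that of drr-2, almost midway between the pair. When each peak was given to the nearest 5' end alone, this one went to drr-2 and set-16 had none. The strongest of the 4 other pooled regions within 5000 bp had a signal of 24.5 at a distance of 4736 bp, and the set-16 peak was 10.8 times that value. Its neighbours in rank were the peak of klp-13 (signal 269) and that of Y73B6BL.29 (signal 263).

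The peaks of ash-2 and set-16 differed in strength by about the same factor in each list. The signal at ash-2 was 6.79 times that at set-16 in the pooled list, 7.44 times in replicate 1 and 6.004 times in replicate 2. Both had a width other than the list's usual 356 bp, as did 112 of the 491 thresholded peaks (22.8%). The ash-2 peak was wider than usual and the set-16 peak narrower, and in the replicates the set-16 peak spanned 178 bp and 155 bp.

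**Figure D2:**
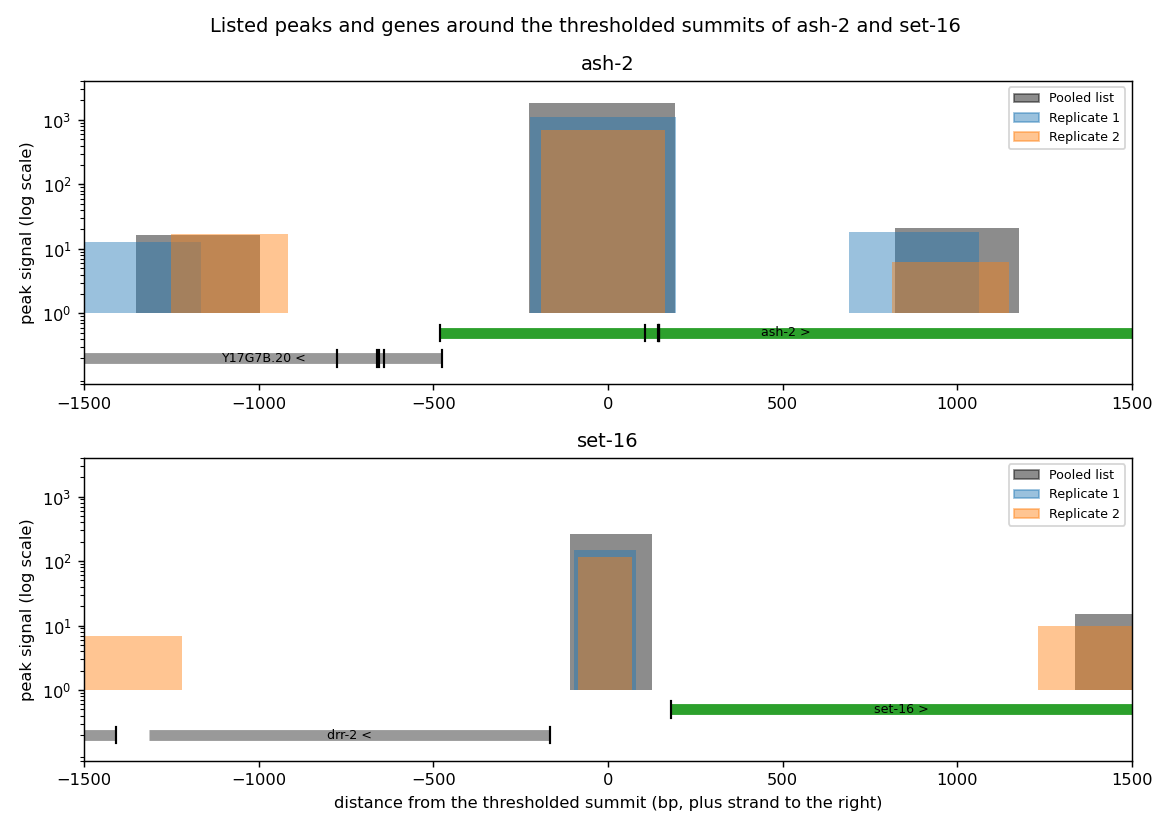
Listed peaks of the pooled list and of each replicate (shaded boxes, height is the signal on a log scale) and annotated genes (bars, with > or < for the strand and black ticks at 5' ends) by distance from the thresholded summit in bp. The ash-2 summit lies between the non-coding and the coding 5' ends of ash-2, and the set-16 summit between the 5' ends of drr-2 and set-16.

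The sequence at the ash-2 summit held CCTGCACA across the summit base, from 6 bases before it to 1 base after it. Among all words of 8 bases this one had the largest difference between its share of the 100 strongest nuclear summits and its share of sub-threshold ones. The ash-2 summit is among those 100, so the match was used in choosing the word. It was present, on either strand within 50 bp, at 15 of the 50 strongest thresholded summits, ash-2 among them, at 18 of 490 thresholded summits with a complete window (3.67%) and at 0.122% of 29509 sub-threshold summits. It was present in 0.155% of 19973 promoter stretches of the same length, centred 150 bp upstream of each coding gene's most upstream 5' end. Of the 10 leading words, 6 were found at ash-2, all in 1 stretch that runs from this word into the following TCTAA, and 0 were found at set-16.

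Both thresholded members held a spaced pair, TGGC and GCCA with 5 bases between them, the form of the half-sites to which nuclear factor I proteins bind in animals. Counting the summit base as 0 on the plus strand, it lay at 12 to 24 at ash-2. At set-16 there were 2 such pairs, at -38 to -26 and at 65 to 77. The pair was searched for after the sequences had been read. It was present within 50 bp of 10 of the 50 strongest thresholded summits, 25 of 490 thresholded summits, 0.197% of sub-threshold summits and 0.175% of promoter stretches.

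The set-16 summit also held GAGACGCAG, one of 8 words searched by name, at -23 to -15 and at 44 to 52. Within 50 bp it was present at 9.80% of thresholded summits, 0.851% of sub-threshold summits and 1.25% of promoter stretches. Among the 50 strongest thresholded summits it was present at 1 (2.0%). The copy before the summit overlaps a match to GAGAGA, found at 21.02% of thresholded, 5.77% of sub-threshold summits and 8.42% of promoter stretches. Both strands were searched for the other 6 words, which were TTTCGCG and the E-box CACGTG, then TGACGT as in CREB sites, the GATA word GATAAG, the TATA word TATAAA and the splice acceptor word TTTCAG, and 0 were found within 50 bp of either summit. A match describes these letters only and is not a binding site.

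The gene rbbp-5 (WBGene00017683, chromosome II) encodes the core subunit that pairs with ASH-2. It had the strongest pooled region of the members below the threshold, with a signal of 29.6 and rank 1314, against 45.9 for both the lowest thresholded peak and the strongest region outside that list. The signal was 18.4 in replicate 1, rank 2232, and 8.60 in replicate 2, rank 12553. The summit lay in the 232 bp between rbbp-5 and the divergent gene tpp-2, 154 bp upstream of rbbp-5 and 79 bp upstream of tpp-2. Its summit was at 6097676 in the pooled list, 6097616 in replicate 1 and 6097658 in replicate 2. Within 50 bp of it 0 of the words above were found.

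The gene set-2 (WBGene00004782, chromosome III) encodes the SET1-type catalytic subunit, needed for H3K4 trimethylation in worm embryos. Its strongest pooled region had a signal of 20.1, rank 6732, with the summit 143 bp upstream. The list of replicate 1 had a region with the same summit, a signal of 15.1 and rank 5327. The only region of replicate 2 in the window had its summit 799 bp upstream, inside coding sequence of the neighbour C26E6.12, with a signal of 10.4. The replicates thus did not list the same place at set-2.

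The gene cfp-1 (WBGene00009924, chromosome IV) encodes the CXXC zinc finger subunit that is particular to SET1-type complexes. It had 4 pooled regions in its window, with signals from 14.4 to 18.8, which is the most of any member. Its window is also the widest, 6094 bp from 7 separate 5' ends, against 1201 bp for a gene with 1 such end. The strongest region, 420 bp upstream, ranked 8703. A region of replicate 2 inside the gene ranked 1193 with a signal of 15.7, while the strongest in replicate 1 ranked 11634 with a signal of 12.2.

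The gene wdr-5.1 (WBGene00006474, chromosome III) encodes the main worm WDR5, a propeller protein of the core. It had 1 pooled region, 162 bp upstream, with a signal of 17.5 and rank 11203. Replicate 2 listed a region with a signal of 9.64, and its summit was 173 bp upstream. The closest region of replicate 1 had its summit 1357 bp downstream of the 5' end, outside the window. Its pooled signal was near the median of 17.7 over the 8159 protein-coding genes with a pooled summit, and 49.05% of those genes had a weaker one.

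The gene dpy-30 (WBGene00001088, chromosome V) encodes the small subunit that docks on ASH-2 and is also needed for dosage compensation. It had a summit in the list of replicate 2 alone, 386 bp upstream, with a signal of 6.49 and rank 25102 of 30000. The nearest pooled summit lay 784 bp downstream of its 5' end, past the window. That region, with a signal of 20.8, was 28 bp downstream of a 5' end of the next gene, rnp-1. Its summit, at 12192303, was still inside the annotated span of dpy-30, 12191519 to 12192385.

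The gene hcf-1 (WBGene00001827, chromosome IV) encodes the host cell factor that associates with such complexes and with DAF-16 in worms. No list had a summit in its window, and the nearest pooled summit was 2821 bp away with a signal of 14.7. Its divergent neighbour swd-2.2, whose product is related to another COMPASS subunit, starts 135 bp further on, and that window held no listed summit either. The nearest thresholded summits to hcf-1 and cfp-1 were 17148 bp and 6352 bp from their 5' ends. They were 26149 bp away for set-2, 96204 bp for wdr-5.1, 100252 bp for dpy-30 and 233797 bp for rbbp-5.

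**Figure D3:**
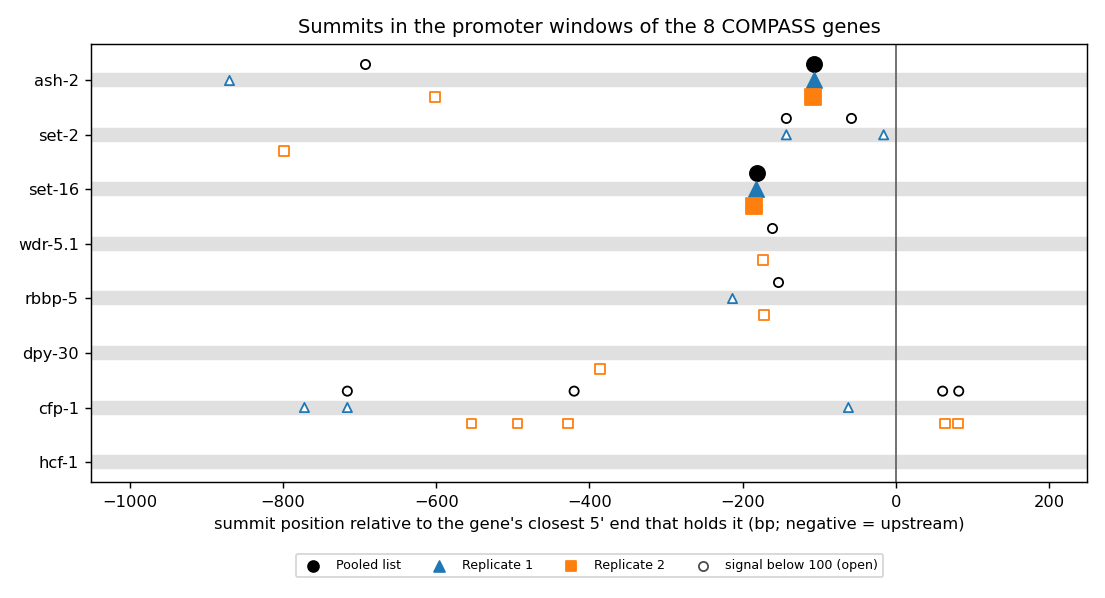
Summits in the promoter windows of the 8 members by position in bp relative to the closest 5' end whose window holds them, for the pooled list, replicate 1 and replicate 2 (filled symbols have a signal of 100 or more, open symbols less). The filled symbols of the 3 lists coincide at ash-2 and at set-16, while summits spread at the weaker regions and hcf-1 has none.

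Base composition at the strongest pooled summit differed among the members. Within 50 bp, GC made up 50.5% at ash-2, 61.4% at set-16, 46.5% at rbbp-5, 35.6% at wdr-5.1, 27.7% at cfp-1 and 19.8% at set-2. The mean was 47.3% over thresholded summits, 33.9% over sub-threshold ones and 34.2% over the promoter stretches. Within 50 bp the 3 members with the strongest signals lay above the other 3 in GC, over 6 genes that share the same libraries, and no test was made. Within 100 bp this split did not hold: GC was 35.3% at both ash-2 and rbbp-5, 50.2% at set-16, 35.8% at wdr-5.1, 31.8% at set-2 and 24.9% at cfp-1. At this width the mean was 42.8% over thresholded summits, and 34.2% over both sub-threshold summits and promoter stretches. The ash-2 summit was thus above the thresholded mean within 50 bp and below it within 100 bp.

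Genes related to COMPASS or to histone methylation more widely were counted from lists of 23 genes, chosen with earlier results of these data known. Among all protein-coding genes 2.89% had a thresholded summit and 40.8% a pooled one. The share was 29.4% in the list of replicate 1 and 41.1% in that of replicate 2. With so few genes per list, nothing is read from these counts. Of 6 COMPASS-associated proteins and paralogs (wdr-5.2, wdr-5.3, swd-2.1, swd-2.2, utx-1 and pis-1), 0 had a thresholded summit and 2 had a pooled one, wdr-5.2 with a signal of 16.9 and utx-1, a demethylase of another lysine of H3 found in SET-16 complexes, with 15.9. Replicate 1 listed a summit for 1 of these 6 genes and replicate 2 for 2. Of 4 H3K4 demethylases (rbr-2, spr-5, lsd-1 and amx-1), 0 had a thresholded summit and 2 had one in each replicate's list, though not the same 2 genes. Among them rbr-2, the worm KDM5 enzyme, had a pooled one with a signal of 20.7.

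Of 13 other histone lysine methyltransferases and SET-domain proteins, 4 had a thresholded summit and 10 had a pooled one, against 2.89% and 40.8% of all protein-coding genes. The count was 7 in the list of replicate 1, against 29.4%, and 8 in that of replicate 2, against 41.1%. The list was chosen with earlier results known, so nothing is read from these shares. The strongest of the 4 thresholded summits was at set-26, a SET-domain protein that binds methylated H3, with a pooled signal of 71.2 and rank 273. Its summit lay in the 729 bp between set-26 and the divergent gene tsr-2, whose window also held it, and it ranked 240 in replicate 1 and 458 in replicate 2. The spaced pair lay at -21 to -9 from this summit.

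The next was at dot-1.1, a worm gene of the DOT1 type whose human relative methylates lysine K79 of H3. It had a pooled signal of 63.7, rank 307, with ranks of 454 in replicate 1 and 257 in replicate 2, and the window of zwl-1, a kinetochore gene, held the same summit. At set-4, an enzyme that methylates histone H4, the signal was 57.8, rank 360, with ranks of 337 in replicate 1 and 442 in replicate 2. At mes-2, the Polycomb-type enzyme of the germline, it was 56.7, rank 371, with ranks of 638 in replicate 1 and 273 in replicate 2. All 4 were weaker than the set-16 peak in the pooled list and in each replicate. Unlike set-26, the summits at dot-1.1, set-4 and mes-2 held no such spaced pair within 50 bp or 100 bp. No thresholded summit was found in the windows of the remaining 9 genes, set-17, set-30, met-1, met-2, set-25, set-32, set-1, set-9 and mes-4.

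**Figure D4:**
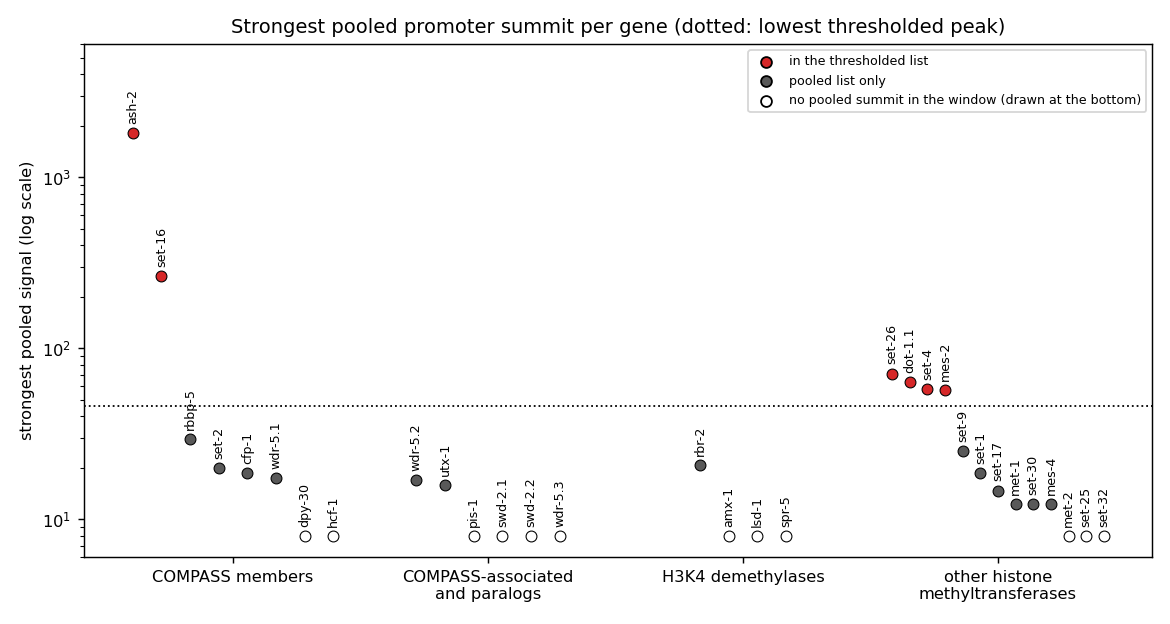
Strongest pooled signal in the promoter window of each gene, on a log scale, for the 8 members, 6 associated proteins and paralogs, 4 demethylases and 13 other methyltransferases and SET-domain proteins. Red points are in the thresholded list, grey points lie below its lowest signal of 45.9 (dotted line), and open points at the bottom had no pooled summit in the window.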

How the data were processed

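Peak lists on ce11 were used for both replicates of the single group. Signal values are the authors' own, deposited as the strength of each peak relative to a control library. Peaks and background regions were called by the authors per replicate and on both together, and the thresholded list was derived from these by IDR, per the submitters' records deposited beside the lists. The sources at hand name no aligner, peak caller or IDR threshold. The ce10 lists were not analysed here.

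Summits, taken as the peak start plus the deposited offset, were placed in windows around Ensembl WBcel235 release 115 transcripts. Sequences were read from the RefSeq WBcel235 genome, and 0 peaks ran past a chromosome end in it. Overlap needed 1 bp. Words were counted by presence on both strands. The window assignment was tested on simulated summits. Python 3.11 with pandas 2.3.3 and numpy 2.4.6 was used.

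The naming rule covers the 8 members, genes sharing their summits, and the genes at the ranks next to a thresholded member peak. It also covers those of the 23 other listed genes with a thresholded summit. The names rnp-1, C26E6.12, wdr-5.2, utx-1, rbr-2, tsr-2, zwl-1 and swd-2.2 fall outside it and were added once their values were known, as were CCTGCACA and the spaced pair. The remaining listed genes without a thresholded summit also fall outside the rule and are named only to show what the lists held. The members, lists and words were chosen with earlier results of these data known. Read depth is unknown, so signals carry no interval.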

Additional observations from a re-analysis of the deposited data

How the results depend on the processing

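Counts were held to 1.5 times the reported one, and the GC share to its exact binomial interval, which covers counting error only. By these limits 17 recomputed values stayed and 3 moved, of which 2 were counts. The thresholded count of 2 members became 1 in both: set-16 was lost with the nearest 5' end only and ash-2 with the most upstream 5' end only. It was 2 with 500 bp or 2000 bp upstream, with the peak midpoint, in the stronger 246 peaks and with the 491 strongest peaks of either replicate alone. The cuts at 246 and 491 peaks could not lower that count. In the pooled list, replicate 1 and replicate 2, ash-2 ranked 11, 9 and 11 and set-16 ranked 57, 67 and 57. The pooled count of 6 members ran from 5 to 7 without replicate 2 or replicate 1. The mean GC share of the ash-2 and set-16 summits was 55.9% within 50 bp and 42.8% within 100 bp, outside that interval, and the order of the members by GC also differed between these windows. Over all thresholded summits the mean also fell, from 47.3% within 50 bp to 42.8% within 100 bp. Reciprocal overlap of 50% kept all 4 replicate peaks at ash-2 and set-16. No paired analysis was possible because a second group was not measured. Ranks below the threshold differ widely between the replicates (cfp-1, rbbp-5), and how far depth limits these regions cannot be given.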
